A study of Homo sapiens with 8 samples.

Results

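Aminoacyl-tRNA synthetases are the enzymes that join each amino acid to its transfer RNA. The set described here was a list of 35 such genes, of which 34 were measured: 19 whose products serve the cytosol and 15 whose products work in mitochondria. They were found in the array table through their gene symbols, with the probe set of highest mean taken for each gene, out of 17958 genes with a probe set of their own. Genes whose symbol ends in 2 formed the mitochondrial set, and SARS2, the remaining gene of the list, was not analysed here. GARS1 and KARS1 were counted as cytosolic by this rule, although each gene is known to encode enzyme for both compartments.

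Total RNA of 2 human lymphoma cell lines was hybridised to 8 whole-transcript arrays. KMH2, a line from Hodgkin lymphoma, was given glucosamine for 24 h (3 arrays) or was untreated (3 arrays, called control), and Ramos, a line from Burkitt lymphoma, gave 2 arrays. Both lines grew in RPMI medium with GlutaMAX, heat-inactivated fetal bovine serum and antibiotics, and no label names a glucosamine dose. The KMH2 replicates were called biological in the design text. The labels name both Ramos arrays control, whereas the design text puts one of the pair after glucosamine, so Ramos is described as a cell line, each of its arrays is given separately, and no treatment is assigned to either.

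Cells hold a separate set of synthetases for the tRNAs of the cytosol and of the mitochondrion, nearly all encoded in the nucleus. When an amino acid runs short its tRNA stays uncharged, the kinase GCN2 (gene EIF2AK4) senses this, and translation of the transcription factor ATF4 rises. ATF4 binds the C/EBP-ATF response element, a short motif near genes of amino acid supply, among which several cytosolic synthetase genes are textbook targets. Several cytosolic synthetases are held in a multi-synthetase complex, while others are free-standing.

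Values are log2 signals per probe set, as deposited, and every difference is that of group means on the log2 scale, the glucosamine arrays or the Ramos arrays less the KMH2 control arrays. A gene was said to have risen, fallen or changed when the adjusted p of limma, a linear-model test run over 19181 probe sets, lay under 0.05. Array medians lay between 5.62 and 5.68. Hodgkin markers were lower in Ramos than in KMH2 control in 6 of 6 cases, and germinal centre B-cell markers were higher in Ramos in 6 of 6. Of 4 T and NK cell markers NKG7 was higher in Ramos (0.75), CD3D was lower (-2.50) and 2 did not pass. Of 3 myeloid markers LYZ was higher in Ramos (0.64), and CD14 (-1.96) and ITGAM (-1.69) were lower. In KMH2 the same 6 Hodgkin markers also fell after glucosamine, by 0.28 (FSCN1) to 1.04 (GATA3). Markers of T and NK cells passed the test after glucosamine in 0 of 4 cases, with differences from -0.16 to 0.16. Among the 6 germinal centre B-cell markers BCL6 (-0.51) and PAX5 (-0.37) fell. Among 3 myeloid markers CD14 fell (-1.08), and the part of any of these shifts in the results below was not tested.

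The motif of ATF4 stood close to the start of several of the cytosolic genes that rose. Promoter windows of RefSeq, running over 250 bases before and 50 bases after a transcript start (GRCh38.p14), were given for 29 of the 34 genes. They were searched on both strands for TGATGNAA, which reads TTNCATCA on the other strand. Matches lay in 7 of 16 cytosolic genes (43.8%) and in 1 of 13 mitochondrial genes (7.69%), against 1217 of 27305 genes of the whole promoter table (4.46%). The sequences below show each cytosolic match, in capitals, with its flanks on the gene's own strand, because these are the genes whose signal the next paragraphs describe.
CARS1 (chr11:3057407-3057436, minus strand): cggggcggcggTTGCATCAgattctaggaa
GARS1 (chr7:30594834-30594863, plus strand): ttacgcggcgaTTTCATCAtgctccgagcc
TARS1 (chr5:33440956-33440985, plus strand): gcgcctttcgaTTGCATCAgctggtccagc
NARS1 (chr18:57621804-57621833, minus strand): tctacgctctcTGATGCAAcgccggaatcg
AARS1 (chr16:70289675-70289704, minus strand): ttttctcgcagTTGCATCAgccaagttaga
MARS1 (chr12:57488053-57488082, plus strand): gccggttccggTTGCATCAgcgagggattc
IARS1 (chr9:92293692-92293721, minus strand): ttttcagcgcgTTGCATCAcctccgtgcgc

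With the annotated start counted as 0, the match began at -2 in CARS1, -4 in MARS1, -13 in IARS1, -33 in GARS1, 2 in TARS1 and 14 in NARS1. The match in AARS1 began at -187. Of the 9 cytosolic genes that rose and had a promoter window 6 held the motif, and of the other 7 cytosolic genes 1 did (IARS1). SARS1, WARS1 and EPRS1 rose and held no match in these windows. Across the array the motif was found in 76 of 1720 genes that rose (4.42%), 41 of 2102 that fell (1.95%) and 378 of 10042 that did not pass (3.76%). The single mitochondrial match was in YARS2, at -197.

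**Figure D1:**
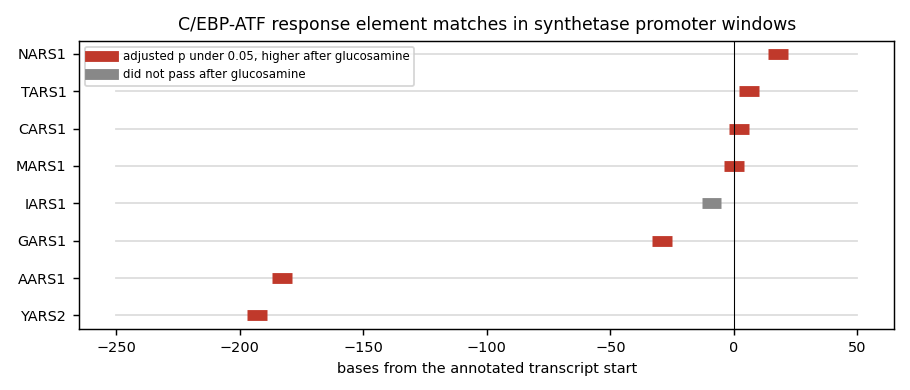
Place of each match to the C/EBP-ATF response element (coloured block, drawn to scale) in the promoter window of 8 synthetase genes, in bases from the annotated transcript start. Red genes rose after glucosamine and the grey gene, IARS1, did not pass; 6 of the 8 matches begin between -33 and 14.

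A second motif, the E-box CACGTG that MYC and MAX bind, is the same on both strands. It was found in 3 of 13 mitochondrial genes (CARS2, EARS2 and MARS2) and in 1 of 16 cytosolic genes (IARS1), against 8.77% of all genes of the table. On the array it was found in 10.5% of genes that rose, 15.7% of those that fell and 10.1% of those that did not pass. GCATGCGC (GCGCATGC on the other strand), the core bound by nuclear respiratory factor 1, a regulator of nuclear genes for mitochondria, was found in MARS2 and YARS2 and in 0 cytosolic genes, against 3.68% of all genes. Its shares on the array were 7.09% of genes that rose, 6.14% of those that fell and 4.23% of those that did not pass. In MARS2 it was found on both strands, as a pair of overlapping matches. These matches are letters in a window, and binding was not measured.

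After 24 h of glucosamine the cytosolic and mitochondrial genes of KMH2 moved in different directions for the most part. Of 19 cytosolic genes 10 rose, 2 fell and 7 did not pass, with a median difference of 0.31. Of 15 mitochondrial genes 2 rose, 8 fell and 5 did not pass, with a median of -0.20. Across all probe sets tested 11.9% rose and 13.9% fell, and the median difference was 0.01. In 24 of the 34 genes the 3 glucosamine arrays lay all above or all below the 3 control arrays, which was so in 40.9% of all probe sets. In another fit all 8 arrays shared the estimate of the spread, which takes in the 2 Ramos arrays, no part of this comparison. In it 12 of the 22 calls were lost. These were AARS1 (adjusted p = 0.125), FARSB (0.0541), WARS1 (0.0573), CARS2 (0.319), MARS2 (0.0802), TARS2 (0.102), LARS2 (0.152), VARS1 (0.255), NARS2 (0.209), IARS2 (0.334), FARS2 (0.216) and YARS2 (0.0784). All of these genes but YARS2 had a larger SD in Ramos than in either KMH2 group, but so had all genes that kept their call, apart from MARS1. For AARS1, which lost its call, the SD was 0.53 in Ramos, against 0.01 in glucosamine and 0.02 in control arrays. For CARS1, which kept its call, it was 0.58 in Ramos, against 0.02 in glucosamine and 0.02 in control arrays. Why some calls were lost and others kept was not tested. More RNA per cell and more cells with the RNA cannot be told apart in these bulk samples.

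**Figure D2:**
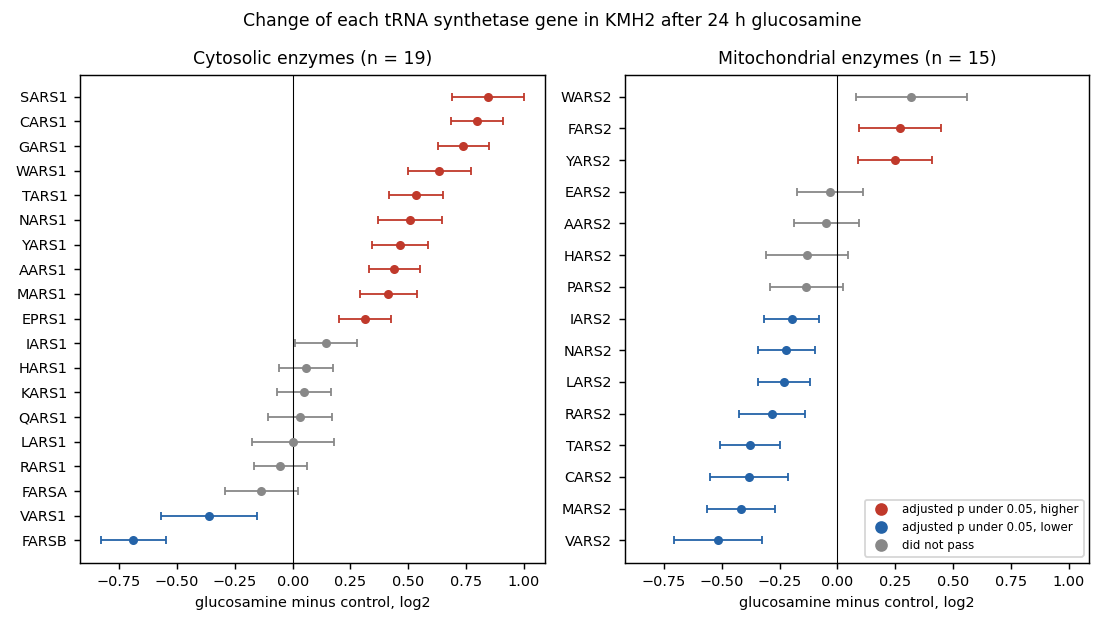
Difference between KMH2 glucosamine and KMH2 control arrays for each gene on the log2 scale (points, limma estimate; bars, 95% confidence interval; n = 3 arrays per group). Cytosolic genes run up to 0.84 (SARS1), whereas most mitochondrial genes lie below 0, down to -0.52 (VARS2).

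Free-standing cytosolic synthetases held the 8 largest rises. SARS1, which charges serine tRNA and also feeds the selenocysteine pathway, gave 10.51, 10.29 and 10.32 in glucosamine arrays, against 9.54, 9.53 and 9.53 in control arrays. The groups stood apart by far more than their own spread, a difference of 0.84 ± 0.07 (SE) or 1.80-fold (limma adjusted p = 0.000121). CARS1, the cysteinyl enzyme, gave 9.27, 9.23 and 9.24 in glucosamine arrays, against 8.44, 8.47 and 8.43 in control arrays. Its replicates were close together, and it was 1.74-fold higher (0.80 ± 0.05, SE, adjusted p = 4.65e-05, the smallest among the 34 genes). GARS1, the glycyl enzyme, gave 11.35, 11.38 and 11.39 in glucosamine arrays, against 10.62, 10.65 and 10.62 in control arrays, a 1.67-fold rise (adjusted p = 5.97e-05).

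WARS1, the tryptophanyl enzyme, is also an interferon-induced gene. It gave 11.09, 11.00 and 10.94 in glucosamine arrays, against 10.43, 10.34 and 10.36 in control arrays, and was 1.55-fold higher. TARS1, for threonine, gave 10.30, 10.25 and 10.24 in glucosamine arrays, against 9.75, 9.69 and 9.75 in control arrays. NARS1, for asparagine, gave 10.67, 10.77 and 10.84 in glucosamine arrays, against 10.25, 10.28 and 10.23 in control arrays. No array of either gene crossed into the other group's range, and the rises were 1.45-fold for TARS1 and 1.42-fold for NARS1. YARS1, for tyrosine, gave 10.25, 10.14 and 10.19 in glucosamine arrays, against 9.75, 9.74 and 9.71 in control arrays. AARS1, for alanine, gave 11.78, 11.79 and 11.81 in glucosamine arrays, against 11.36, 11.37 and 11.33 in control arrays. YARS1 thus rose by 0.46 and AARS1 by 0.44, and adjusted p for these 5 genes lay between 0.000232 (WARS1) and 0.000632 (NARS1).

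Members of the multi-synthetase complex moved less widely. Of the 7 that were measured 2 rose and 5 did not pass, with a median difference of 0.05, whereas of 12 free-standing cytosolic genes 8 rose, 2 fell and 2 did not pass, with a median of 0.49. This split was made with the values known, and the difference between the groups was not tested. MARS1, the methionyl enzyme, gave 11.37, 11.47 and 11.43 in glucosamine arrays, against 11.06, 11.00 and 10.97 in control arrays (0.41 ± 0.05, SE, adjusted p = 0.00103). EPRS1, which joins the glutamyl and prolyl enzymes in a single chain, was 10.42 ± 0.03 in glucosamine arrays and 10.10 ± 0.02 in control arrays (SD, n = 3 each; limma adjusted p = 0.00235).

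The other complex members lay near 0. LARS1, the leucyl enzyme and a leucine sensor for mTORC1, was 9.52 ± 0.11 in glucosamine arrays and 9.52 ± 0.10 in control arrays (SD, n = 3 each), and the 95% confidence interval around their difference ran from -0.18 to 0.18. QARS1 (glutamine) differed by 0.03, KARS1 (lysine) by 0.05 and RARS1 (arginine) by -0.05, with intervals that reached at most 0.17 on either side. IARS1 (isoleucine) differed by 0.14, with an interval from 0.01 to 0.28 before adjustment and an adjusted p of 0.117. All its glucosamine arrays (10.97, 11.12 and 11.08) lay above its control arrays (10.88, 10.90 and 10.95). It passed with array weights (0.0276) and when glucosamine replicate 1 was left out (0.0387), while the alternatives together spanned 0.0276 to 0.282.

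By enzyme class the cytosolic rises were spread over both folds. Of 9 class I genes 4 rose and 1 fell, and of 9 class II genes 5 rose and 1 fell, while EPRS1 holds a domain of each class.

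Cytosolic phenylalanyl-tRNA synthetase is made of an alpha subunit (FARSA) and a beta subunit (FARSB). FARSB fell more than any other gene of the set, with 10.09, 10.02 and 9.91 in glucosamine arrays, against 10.68, 10.71 and 10.70 in control arrays. That is a 1.61-fold fall (-0.69 ± 0.06, SE, adjusted p = 0.00018). FARSA gave 10.71, 10.73 and 10.79 in glucosamine arrays, against 10.99, 10.89 and 10.76 in control arrays, so its groups overlapped (-0.14, adjusted p = 0.20). Whether the subunits differ in their change was not tested.

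VARS1, for valine, was the other cytosolic gene that fell. It gave 9.50, 9.21 and 9.24 in glucosamine arrays, against 9.74, 9.73 and 9.56 in control arrays, with 1 glucosamine array close to the control range. Its difference was -0.36 ± 0.09 (SE, adjusted p = 0.0201), and leaving out control replicate 1 (0.0670) or 2 (0.0770), or glucosamine replicate 2 (0.0675) or 3 (0.0753), ended the call, with alternatives between 0.00148 and 0.255. HARS1, for histidine, did not pass (0.06, adjusted p = 0.487). HARS1 and HARS2 are transcribed away from each other from starts 85 bases apart, and HARS2 did not pass either (-0.13, adjusted p = 0.265).

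Among the mitochondrial enzymes, VARS2 fell most. It gave 6.51, 6.26 and 6.52 in glucosamine arrays, against 6.88, 7.03 and 6.94 in control arrays, a 1.43-fold fall (adjusted p = 0.00258). MARS2, for methionine, gave 7.18, 7.31 and 7.36 in glucosamine arrays, against 7.74, 7.73 and 7.64 in control arrays, and CARS2, for cysteine, gave 8.29, 8.52 and 8.44 in glucosamine arrays, against 8.77, 8.89 and 8.75 in control arrays. None of these groups overlapped, and the falls were -0.42 for MARS2 (adjusted p = 0.00211) and -0.38 for CARS2 (adjusted p = 0.00619).

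TARS2, for threonine, gave 8.06, 7.94 and 8.08 in glucosamine arrays, against 8.42, 8.38 and 8.42 in control arrays. RARS2, for arginine, gave 7.41, 7.39 and 7.34 in glucosamine arrays, against 7.58, 7.63 and 7.77 in control arrays. LARS2, for leucine, gave 7.87, 7.86 and 7.81 in glucosamine arrays, against 8.06, 8.08 and 8.09 in control arrays. The differences were -0.38 for TARS2, -0.28 for RARS2 and -0.23 for LARS2, each larger than the spread within either group (adjusted p at most 0.0117). NARS2 (-0.22, adjusted p = 0.0175) and IARS2 (-0.20, adjusted p = 0.0240) fell least. The call of NARS2 was lost without control replicate 2 (0.0563) or 3 (0.0604) or glucosamine replicate 3 (0.0552), with alternatives between 0.00686 and 0.209. That of IARS2 was lost without control replicate 2 (0.0638) or 3 (0.0870) or glucosamine replicate 2 (0.0639) or 3 (0.0850), with alternatives between 0.00673 and 0.334.

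FARS2 and YARS2 were the mitochondrial genes that rose. FARS2, a single-chain phenylalanyl enzyme, gave 9.30, 9.22 and 9.12 in glucosamine arrays, against 9.08, 8.85 and 8.89 in control arrays (0.27 ± 0.08, SE, adjusted p = 0.0353). YARS2, for tyrosine, gave 7.90, 8.11 and 8.02 in glucosamine arrays, against 7.74, 7.70 and 7.84 in control arrays (0.25 ± 0.07, SE, adjusted p = 0.0319). The gap between the groups was narrow in both genes. FARS2 lost its call when control replicate 2 (0.128) or 3 (0.117) or glucosamine replicate 1 (0.0748) or 2 (0.0849) was left out. Median centring (0.0652) and a fit of the whole table (0.0724) ended it too, and its alternatives lay between 0.0101 and 0.216. YARS2 lost its call when control replicate 1 (0.0878) or 2 (0.116) or glucosamine replicate 2 (0.0965) or 3 (0.0933) was left out, and in a fit of the whole table (0.0642). Its alternatives lay between 0.00568 and 0.116.

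WARS2, for tryptophan, had its 3 glucosamine arrays (7.64, 7.28 and 7.22) above all control arrays (7.06, 7.05 and 7.08), with replicate 1 well above the others. At 0.32 ± 0.10 (SE) it missed the threshold (adjusted p = 0.0568), but passed in the paired fit with the replicate number as a block (0.0266). It also passed with dim probe sets removed (0.0405), with glucosamine replicate 1 (0.0338) or 3 (0.0388) left out and with the replicate 1 arrays of both groups left out (0.0484), among alternatives between 0.0266 and 0.145. Of the 4 remaining mitochondrial genes AARS2 differed by -0.05, EARS2 by -0.03, PARS2 by -0.13 and HARS2 as above, and none passed.

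**Figure D3:**
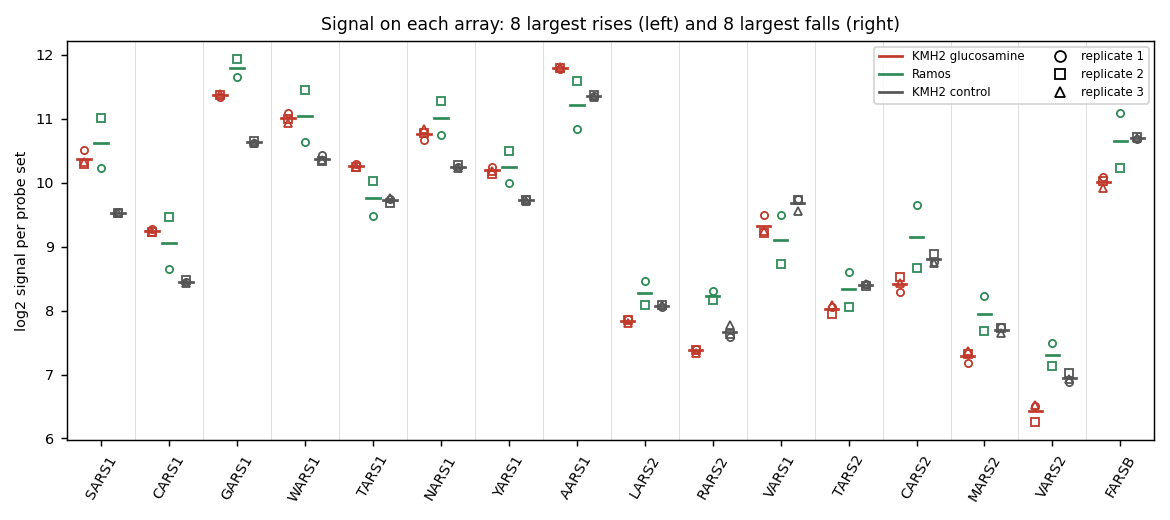
Log2 signal of every array for the 8 largest rises and the 8 largest falls, with KMH2 glucosamine in red, Ramos in green and KMH2 control in grey (short bars are group means, symbols are replicates). In KMH2 the glucosamine and control arrays do not overlap for any of the 16 genes, while the 2 Ramos arrays of SARS1 (10.22 and 11.02) and CARS2 (9.66 and 8.66) lie far apart; heights of different genes are not comparable.

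Setting the enzymes of each amino acid side by side removes a shift that an array adds equally to both on the log2 scale. An effect that differs between bright and dim probe sets is not removed. For each of 16 cytosolic and mitochondrial pairs the log2 ratio was taken within each array, and its change after glucosamine was computed. EPRS1 and FARS2 each enter 2 pairs. The ratio of cytosolic to mitochondrial signal was higher on all 3 glucosamine arrays than on any control array in 12 pairs, lower in 2 and overlapping in 2. Each of the 14 separated pairs has an exact two-sided permutation p of 0.1, the smallest that 3 arrays against 3 can give, so this test cannot reach 0.05.

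For cysteine the ratio CARS1 to CARS2, set to a mean of 0 in control, was 1.33, 1.06 and 1.15 in glucosamine arrays, against 0.03, -0.06 and 0.04 in control arrays. Its members went opposite ways, and the ratio rose by 1.18. The ratio changed by 0.91 for threonine (TARS1 to TARS2), 0.83 for methionine (MARS1 to MARS2) and 0.73 for asparagine (NARS1 to NARS2). Phenylalanine was the exception in direction. The ratio FARSB to FARS2 was -0.97, -0.95 and -0.96 in glucosamine arrays, against -0.16, 0.11 and 0.05 in control arrays, and that of FARSA to FARS2 changed by -0.41. The ratios overlapped between the groups for leucine (LARS1 to LARS2, 0.23) and for valine (VARS1 to VARS2, 0.16).

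**Figure D4:**
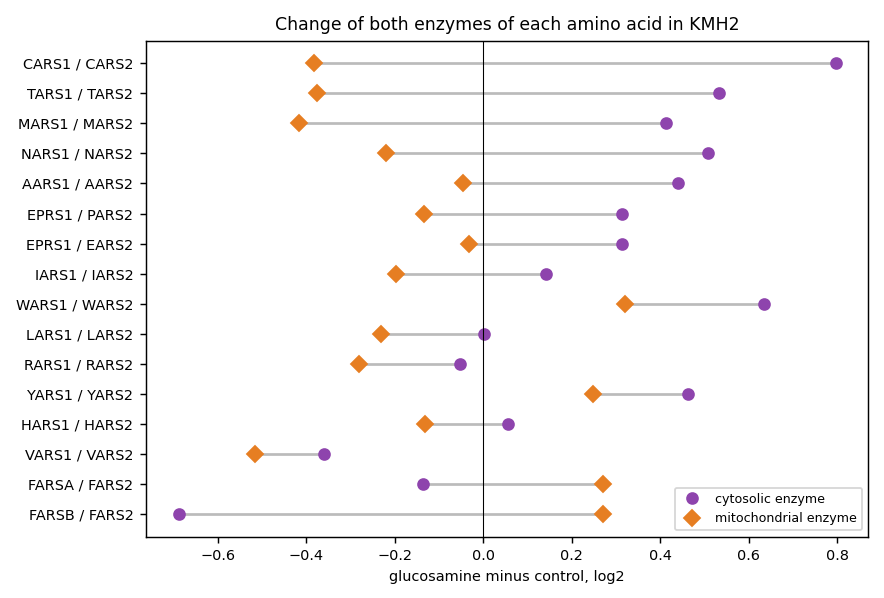
Change after glucosamine in KMH2 (log2, glucosamine minus control) of the cytosolic enzyme (circle) and the mitochondrial enzyme (diamond) of each amino acid, ordered by the gap between them. The cytosolic circle lies to the right in 14 of 16 pairs, from CARS1 and CARS2 (gap 1.18) downwards, and to the left in the FARSA and FARSB pairs with FARS2 (gaps -0.41 and -0.96).

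Other genes of tRNA charging were counted from lists that are no part of the synthetase set. The background for each list, here and below, is the 11.9% of all probe sets that rose and the 13.9% that fell. The list of uncharged-tRNA sensing and the amino acid response rose in 10 of 14 cases and fell in 0. ATF4 itself gave 10.89, 10.69 and 10.77 in glucosamine arrays, against 10.14, 9.85 and 9.90 in control arrays (0.82, adjusted p = 0.00044). The largest rises of the list were those of DDIT3, the stress factor CHOP (1.82), ASNS, asparagine synthetase (1.49), and SESN2, a leucine sensor (1.32). EIF2AK4 did not pass (0.17, adjusted p = 0.119), nor did CHAC1, a glutathione-degrading ATF4 target (-0.03, adjusted p = 0.843). CHAC1 was dim in KMH2, with means of 5.27 in glucosamine and 5.30 in control arrays, below every array median.

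Partners and helpers of the synthetases were split, with 2 of 9 measured genes rising, 2 falling and 5 not passing. PSTK, a kinase of the selenocysteine pathway, differed by 0.54 and QRSL1, a subunit of the mitochondrial amidotransferase that completes glutaminyl-tRNA, by 0.26. GATB, another subunit of that enzyme, fell (-0.57), as did DTD2, a proofreading enzyme, with 6.97, 6.77 and 6.77 in glucosamine arrays, against 8.19, 8.21 and 8.33 in control arrays. The scaffold gene AIMP1 did not pass (0.05, adjusted p = 0.689). Of 7 genes that deliver charged tRNA to the ribosome EEF1A1 (0.17) and EEF1D (0.25) rose, and TUFM, the mitochondrial elongation factor, fell (-0.20).

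Genes of tRNA synthesis, processing and export rose in 5 of 22 cases and fell in 5. XPOT, which exports tRNA from the nucleus, rose by 0.68 and POLR3D, a subunit of RNA polymerase III, by 0.61, whereas ELAC1 (-1.22) and POP1 (-0.51), both of tRNA end processing, fell. In the list of mitochondrial tRNA modification 6 of 11 genes fell, 1 rose and 4 did not pass, with a median of -0.22. TRMT10C, a subunit of mitochondrial RNase P, was lower by the largest amount (-0.61), followed by GTPBP3 (-0.43) and TRMU (-0.42), both of wobble-base modification, and MTO1, of the same pathway, rose (0.30).

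Ramos and KMH2 differed in many of these genes. Against KMH2 control 8 of 19 cytosolic genes were higher in Ramos, 5 were lower and 6 did not pass, and of 15 mitochondrial genes 4 were higher, 1 was lower and 10 did not pass. If 1 Ramos array followed glucosamine, as the design text has it, line and treatment cannot be told apart in these differences. Without any 1 of the 3 control replicates 5 cytosolic genes were higher. Keeping a single Ramos array leaves Ramos no spread of its own, so only the size of the difference is given for such fits. Which Ramos array was kept set the sign of the difference for 3 cytosolic and 7 mitochondrial genes. Over all probe sets 22.7% were higher and 21.2% lower, so the shares with all arrays lie on both sides of the background. Median differences were 0.09 for the cytosolic and 0.21 for the mitochondrial genes, against 0.06 for all probe sets. Both comparisons use the same KMH2 control arrays, so their differences are not independent.

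FARS2 gave the largest difference between the lines, with 7.08 and 6.61 in Ramos, against 9.08, 8.85 and 8.89 in KMH2 control. It was 4.29-fold lower in Ramos (-2.10 ± 0.14, SE, adjusted p = 5.48e-06). WARS2 gave 8.29 and 8.48 in Ramos, against 7.06, 7.05 and 7.08 in KMH2 control, and was 2.50-fold higher. Both Ramos arrays lay far outside the control range for each gene.

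GARS1 gave 11.65 and 11.94 in Ramos, against 10.62, 10.65 and 10.62 in KMH2 control (2.23-fold higher, adjusted p = 1.26e-05). SARS1 gave 10.22 and 11.02 in Ramos, against 9.54, 9.53 and 9.53 in KMH2 control, and NARS1 gave 10.75 and 11.27 in Ramos, against 10.25, 10.28 and 10.23 in KMH2 control. The Ramos arrays of these genes were all above the control range. Replicate 2 lay above replicate 1 by 0.79 in SARS1, 0.52 in NARS1 and 0.29 in GARS1. LARS1 gave 10.20 and 10.19 in Ramos, against 9.43, 9.51 and 9.63 in KMH2 control, a 1.59-fold difference on which the pair of arrays agreed within 0.01.

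Complex member RARS1 was lower, with 9.05 and 8.84 in Ramos, against 9.66, 9.65 and 9.70 in KMH2 control (-0.73, adjusted p = 0.000104). MARS1 gave 10.46 and 10.47 in Ramos, against 11.06, 11.00 and 10.97 in KMH2 control (-0.55), and HARS1 gave 10.11 and 9.77 in Ramos, against 10.55, 10.56 and 10.51 in KMH2 control (-0.60). FARSA gave 10.56 and 9.96 in Ramos, against 10.99, 10.89 and 10.76 in KMH2 control (-0.62, adjusted p = 0.0132, and 0.0504 with KMH2 control and Ramos arrays alone). MARS1 was thus lower in Ramos and higher after glucosamine than in the same control arrays. The remaining calls were those of RARS2 (0.57), NARS2 (0.53), YARS1 (0.51), WARS1 (0.66), CARS1 (0.61), EPRS1 (0.23), VARS2 (0.37) and KARS1 (-0.28).

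Several of these differences rested mainly on 1 Ramos array. That of CARS1 was 1.02 without replicate 1 and 0.20 without replicate 2, that of WARS1 was 1.07 and 0.26 in the same order, and that of YARS1 was 0.76 and 0.26. VARS2 gave 0.18 without replicate 1 and 0.55 without replicate 2, and NARS2 gave 0.33 and 0.73. The calls of CARS1 and WARS1 were lost without any 1 of the 3 control replicates (limma adjusted p at most 0.0869 and 0.0719). They were also lost with KMH2 control and Ramos arrays alone (0.0972 and 0.0769). EPRS1 and VARS2 lost theirs in the same cases. With array weights EPRS1 (0.133), VARS2 (0.203) and KARS1 (0.105) did not pass.

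The 2 Ramos arrays differed from each other in a pattern that ran through this gene set. Replicate 2 was at least 0.5 above replicate 1, the step used here because single arrays allow no test, in 7 of 19 cytosolic and 0 of 15 mitochondrial genes. It was at least 0.5 below in 3 cytosolic and 5 mitochondrial genes. Over all probe sets 6.74% were higher by that step and 7.94% lower. CARS1 gave 9.47 on replicate 2 and 8.65 on replicate 1, WARS1 gave 11.44 and 10.63 in that order, and AARS1 gave 11.59 and 10.85. In the opposite direction CARS2 gave 8.66 on replicate 2 and 9.66 on replicate 1, and FARSB gave 10.22 and 11.10.

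Set beside the KMH2 comparison, which shares no array with this one, 7 of the 12 genes that rose after glucosamine were higher by that step on Ramos replicate 2 and 0 were lower. Of the 10 that fell after glucosamine 5 were lower on replicate 2 by that step and 0 were higher, and all 10 had the lower signal there. Of the 12 that did not pass 0 were higher and 3 were lower. Among all probe sets that rose after glucosamine 24.0% were higher on replicate 2 by the same step, and among all that fell 33.1% were lower. MARS1 and EPRS1 rose in KMH2 but differed by only 0.01 and -0.14 between the Ramos arrays. The sign of the cell-line difference depended on which Ramos array was kept for 3 cytosolic and 7 mitochondrial genes. AARS1 was 0.24 without replicate 1 and -0.51 without replicate 2, TARS1 was 0.30 and -0.24 in that order, and FARSB was -0.47 and 0.40. The mitochondrial genes were CARS2 (-0.14 without replicate 1 and 0.86 without replicate 2), TARS2 (-0.35 and 0.20 in that order), EARS2 (-0.14 and 0.40), AARS2 (-0.13 and 0.28), HARS2 (-0.06 and 0.48), MARS2 (-0.03 and 0.52) and PARS2 (-0.02 and 0.07).

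**Figure D5:**
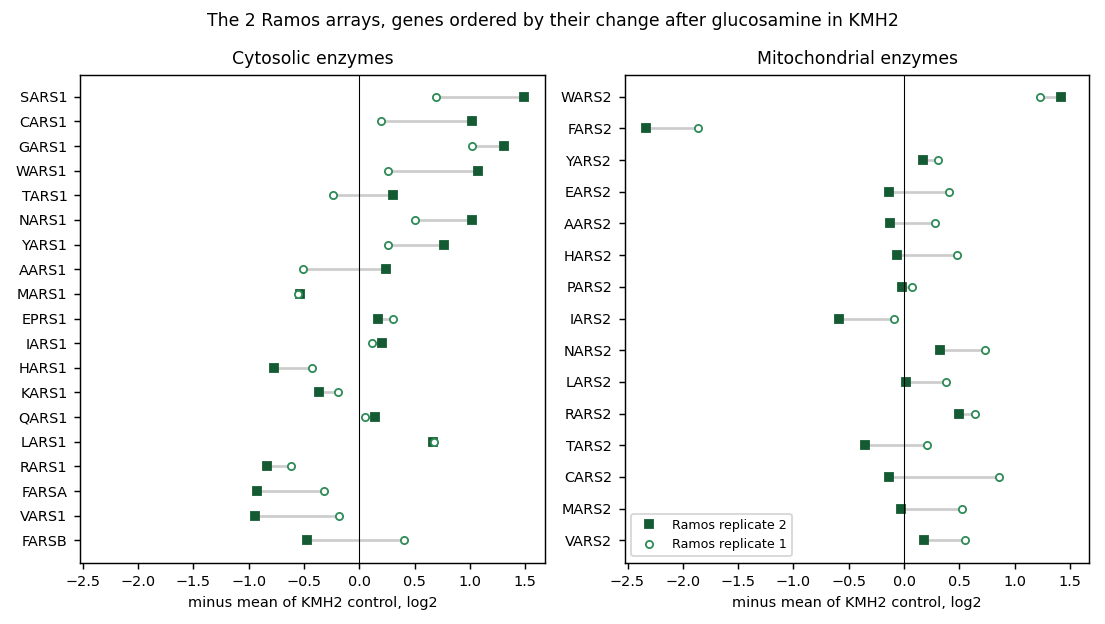
Signal of each Ramos array minus the mean of the KMH2 control arrays (log2), with replicate 2 as filled squares and replicate 1 as open circles, and genes ordered from top to bottom by their change after glucosamine in KMH2. Squares lie to the right of circles by at least 0.5 for 7 of the upper cytosolic genes, and by up to 0.82 (CARS1), and to the left for every mitochondrial gene except WARS2.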

How the data were processed

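The authors deposited log2 signals per probe set for 8 HuGene-1_1-st-v1 arrays (33297 probe sets), with the array type taken from the labels' protocols and the log2 scale read from the values. How the signals were summarized and normalized is not given in the sources used here. Background that stays in such signals compresses differences of dim genes. Probe sets with 1 symbol in the platform annotation (19181) were tested with limma 3.58.1 in R 4.3.3 (lmFit, eBayes, two-sided, Benjamini-Hochberg over all of them, threshold 0.05), after a check on simulated data. The KMH2 comparison used 6 arrays, and the Ramos comparison used all 8 in 3 groups. VARS1 and VARS2 had 2 probe sets each, and those of VARS1 held identical values.

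The members and the other lists were chosen with earlier results of these data known. Array values were given for the 8 largest rises and 8 largest falls after glucosamine and for the 5 highest and 5 lowest genes in Ramos, among those past the threshold. Up to 3 passing genes of each other list were named by size, and further genes (such as ATF4) were chosen after their values were seen. Deviations from group means correlated between KMH2 arrays of equal replicate number (0.46, 0.23 and 0.23), each over 0.1. The numbers were therefore taken as a possible pairing, which entered only the alternative with the replicate number as a block. The main test did not pair the arrays. Arrays numbered 2 and 3 also correlated across numbers (0.25 and 0.18), so these values set replicate 1 apart but do not tell 2 from 3. The number of arrays limits the precision. Protein sequences were not used here.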

Additional observations from a re-analysis of the deposited data

How the results depend on the processing

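Of the 22 synthetase genes called after glucosamine 10 passed in all 15 alternatives, and 17 passed in all but the fit in which 8 arrays shared the spread. The alternative that took the lowest probe set per gene could change a call only in VARS2. All others had 1 probe set or, for VARS1, identical values. The fit with 8 arrays takes in the spread between the Ramos arrays. In it 8 cytosolic genes rose, 0 fell, 0 mitochondrial genes rose and 2 fell, and 2177 probe sets passed in all against 4956. The replicate block left 10 cytosolic genes higher, 2 lower and 8 mitochondrial genes lower, with 3 mitochondrial genes higher, and it changed no other call than that of WARS2. Mitochondrial genes called higher numbered 0 with all probe sets of the table, 1 with median centring, and 3 with dim probe sets removed or the replicate 1 arrays of both groups left out. Leaving out 1 array at a time gave 0 to 2 of them and 1 to 2 cytosolic genes lower. For Ramos, KMH2 control and Ramos arrays alone gave 5 cytosolic genes higher. Leaving out 1 array at a time gave 5 to 9 cytosolic genes higher, 3 to 11 mitochondrial genes higher (11 without Ramos replicate 2) and 1 to 3 lower. Leaving out a Ramos array turned the sign in 3 cytosolic and 7 mitochondrial genes. Among them were AARS1 (0.24 without replicate 1, -0.51 without replicate 2), FARSB (-0.47 and 0.40 in that order) and TARS1 (0.30 and -0.24). A single Ramos array has no spread of its own, so no calls are given for these fits. The cause of these changes was not tested.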
